A study of Mus musculus with 4 samples.

Results

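The regions described here are the stretches of open chromatin in mouse natural killer (NK) cells that lie far from every protein-coding gene. DNase-seq maps where the nuclease DNase I cuts chromatin, and clusters of cuts are called as peaks of accessible DNA. The 4 libraries came from primary NK cells of virgin female B6CASTF1/J mice aged 2 months, an F1 cross of C57BL/6J and CAST mice, and are all of 1 kind, with no second condition in the series. Each library has its own biosample but all share 1 donor identifier, the tissue and the sort are not stated, and the spread between libraries may therefore be partly technical. Touching peaks of the 4 libraries were merged on the 19 autosomes of mm10. A merged region was kept as remote if it overlapped no protein-coding gene of GENCODE and its nearest protein-coding gene 5' end was more than 100 kb away. This left 5716 remote regions of 75963 regions in all.

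Enhancers can act on a promoter over long stretches of chromosome, because chromatin folding brings distant stretches of DNA together. In lymphocytes such elements are bound by factors of the RUNX, ETS and T-box families, and the insulator protein CTCF marks many anchors of chromatin loops. DNase-seq finds accessible DNA of all these kinds but does not say which gene, if any, an element acts on. The gene named beside each region is therefore its nearest neighbour by 5' end and is not claimed as a target.

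The NK label was checked against promoters of marker genes. A peak lay within 1 kb of the 5' end for 7, 8, 10 and 6 of 10 NK markers in replicates 1 to 4, and for 0 of 5 myeloid markers in each. Of 5 B cell markers, 3, 4, 1 and 4 had such a peak, of 6 T cell markers 2, 2, 2 and 1, and of 4 erythroid markers 1, 1, 1 and 0. In replicate 2, 4 of 5 B cell markers stood beside 8 of 10 NK markers, and in replicate 4, 4 of 5 beside 6 of 10. The check therefore does not set NK cells apart from B cells in replicates 2 and 4. The share of all genes with such a peak was not computed. Replicate 3 had the most NK and the fewest B cell promoters open. It also had the longest autosomal peak list, with 67437 peaks against 43014, 46244 and 35219 in replicates 1, 2 and 4. The number of sequenced reads is not given in the files, so the depth of each library is unknown. Replicate 3 stood apart in many of the values below, and what part its peak number or its cell content had in them was not tested.

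The sequences of the strongest remote regions are shown first, since they differ in kind from one another. They are the central 200 bp of the 6 regions with the highest mean signal among those whose sequence is largely unique in the genome, on the plus strand of mm10, each named by its nearest protein-coding gene. Capitals mark matches to the CTCF pattern (also in its looser form), RUNX (TGTGGTT), ETS (AGGAAGT), T-box (AGGTGTG) or AP-1 (TGANTCA), searched on both strands, and in the Mrtfb sequence a tRNA gene of RefSeq.
Zfat, chr15:68363301-68363500: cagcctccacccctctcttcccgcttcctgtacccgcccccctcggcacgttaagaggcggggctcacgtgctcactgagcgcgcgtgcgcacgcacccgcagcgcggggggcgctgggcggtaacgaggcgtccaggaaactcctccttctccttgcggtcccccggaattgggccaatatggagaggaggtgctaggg
Smim15, chr13:107890141-107890340: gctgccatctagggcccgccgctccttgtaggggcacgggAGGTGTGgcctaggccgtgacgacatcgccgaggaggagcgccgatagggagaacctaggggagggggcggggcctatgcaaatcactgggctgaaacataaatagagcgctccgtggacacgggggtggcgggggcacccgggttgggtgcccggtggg
Gm5426, chr10:96371011-96371210: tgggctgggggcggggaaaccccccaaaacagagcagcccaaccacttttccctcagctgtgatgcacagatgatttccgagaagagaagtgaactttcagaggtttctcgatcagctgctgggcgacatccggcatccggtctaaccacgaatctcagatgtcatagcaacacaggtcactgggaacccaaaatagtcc
Bcl2l11, chr2:128295041-128295240: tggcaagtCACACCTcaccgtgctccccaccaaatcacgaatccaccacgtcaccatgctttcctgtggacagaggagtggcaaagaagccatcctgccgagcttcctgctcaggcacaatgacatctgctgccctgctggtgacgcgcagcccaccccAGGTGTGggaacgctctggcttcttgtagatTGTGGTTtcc
Mrtfb, chr16:13437201-13437400: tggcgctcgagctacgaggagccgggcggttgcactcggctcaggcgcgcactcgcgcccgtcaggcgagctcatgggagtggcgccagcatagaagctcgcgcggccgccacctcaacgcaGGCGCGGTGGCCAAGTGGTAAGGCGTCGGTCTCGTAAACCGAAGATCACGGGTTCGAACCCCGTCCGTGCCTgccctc
Spdye4c, chr2:128396041-128396240: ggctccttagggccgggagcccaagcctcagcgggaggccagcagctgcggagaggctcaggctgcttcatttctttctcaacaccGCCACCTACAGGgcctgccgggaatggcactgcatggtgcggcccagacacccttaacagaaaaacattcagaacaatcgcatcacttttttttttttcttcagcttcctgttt

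Next to these stand the central 200 bp of the strongest remote region beside 4 genes of NK cell transcription factors, with capitals as before. These 4 were chosen after their values were seen, to show lymphoid patterns in single elements. Id2 (an inhibitor of E proteins that NK cells need), Ets1 (an ETS factor), Foxo1 (a forkhead factor) and Bach2 (a repressor that restrains lymphocyte activation) are the neighbouring genes.
Id2, chr12:25240211-25240410: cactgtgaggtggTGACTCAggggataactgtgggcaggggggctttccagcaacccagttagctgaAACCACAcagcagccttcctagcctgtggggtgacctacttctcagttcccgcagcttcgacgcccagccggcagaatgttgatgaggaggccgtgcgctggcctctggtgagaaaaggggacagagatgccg
Ets1, chr9:32910781-32910980: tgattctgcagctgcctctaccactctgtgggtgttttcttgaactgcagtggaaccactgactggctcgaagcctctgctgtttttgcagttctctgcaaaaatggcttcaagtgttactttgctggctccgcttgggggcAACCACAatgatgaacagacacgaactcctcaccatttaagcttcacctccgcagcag
Foxo1, chr3:52396331-52396530: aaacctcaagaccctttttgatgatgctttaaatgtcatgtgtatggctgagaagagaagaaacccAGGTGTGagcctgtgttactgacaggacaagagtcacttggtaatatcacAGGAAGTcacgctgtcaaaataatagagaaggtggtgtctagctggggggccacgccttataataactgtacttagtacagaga
Bach2, chr4:32126941-32127140: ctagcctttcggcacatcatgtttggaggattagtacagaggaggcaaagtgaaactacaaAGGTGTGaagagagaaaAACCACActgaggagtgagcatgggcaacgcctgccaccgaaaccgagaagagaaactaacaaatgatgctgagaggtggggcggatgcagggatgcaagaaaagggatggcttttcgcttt
The Id2 window held an AP-1 and a RUNX match, the Ets1 window a RUNX match, the Foxo1 window a T-box and an ETS match, and the Bach2 window a T-box and a RUNX match. The Zfat, Gm5426 and Mrtfb windows held none of the 5 patterns. The other NK cell genes named below were mixed, by the central 150 bp of the strongest region of each. Those of Tgfbr2, Fasl, Zeb2 and Irf2 had a RUNX, ETS, T-box or AP-1 match. Those of Cxcr4, S1pr1, Ifngr1, Ifng, Xcl1, Eomes, Prdm1, Runx1, Tox and Nfil3 had none of these. A match describes the letters and does not show that a factor was bound.

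Remote regions were found in fewer libraries than other regions. Of the 5716, 921 had a peak in all 4 libraries, 541 in 3, 594 in 2 and 3660 (64.0%) in 1. A region with a peak in at least 3 of the 4 libraries is called recurrent here. The 1462 recurrent remote regions made up 25.6% of the remote regions, against 47.1% of all autosomal regions, 48.0% of gene-near intergenic regions (over 1 to 50 kb from a 5' end, 15293 regions), 40.2% of intergenic regions at 50 to 100 kb and 37.5% of intronic regions. The share was lower in remote than in gene-near regions on 19 of 19 chromosomes.

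Replicate 3 supplied most of the regions seen once. It held 2267 of the 3660 single-library regions (61.9%), against 359, 502 and 532 in replicates 1, 2 and 4. In all, 1993, 2207, 4207 and 1748 remote regions had a peak in replicates 1 to 4. The share of a library's autosomal peaks that were remote was 4.81, 4.93, 6.33 and 5.11% (5.30 ± 0.700%, SD, n = 4), highest in replicate 3.

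The lists of low-FDR bases were read at these single-library regions. FDR is the false discovery rate the authors gave to each base, and only bases below 0.05 are listed. Of the 2267 regions with a peak in replicate 3 only, 2131 (94.0%) had no listed base in any other library. In replicate 3 itself 33.0% of them had a base with an FDR below 0.001, against 5.01 to 5.58% of the single-library regions of the other 3 libraries. For comparison, 89.8% of the 4594 gene-near regions seen in replicate 3 only had no listed base elsewhere. Most regions seen once in replicate 3 thus left no listed trace in the other libraries.

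Within each library, remote peaks were less often shared than gene-near peaks. The share of remote peaks found in at least 2 of the other 3 libraries was 69.8, 65.3, 34.7 and 62.8% in replicates 1 to 4. Among gene-near peaks it was 86.3, 80.5, 54.3 and 89.3%. The remote share was lower in each library, and the difference was -19.4 ± 5.04 percentage points (SD, n = 4; exact two-sided sign-flip permutation test, p = 0.125, the smallest value that 4 libraries allow). The size depended on the peak list: it was -7.96 ± 5.004 with the authors' shorter list and -11.9 ± 14.8 with equal numbers of the strongest peaks.

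Remote peaks were also weaker. Their median rank in the signal of their own library was at the 22.8, 23.6, 25.5 and 18.5th percentile in replicates 1 to 4, and that of gene-near peaks at the 47.5, 47.4, 49.9 and 44.3rd. The difference of -24.7 ± 0.849 percentile points had the same sign in 4 of 4 libraries (exact sign-flip permutation test, p = 0.125). With the shorter list it was -14.8 and with equal peak numbers -12.2. In the authors' signal units, the median was 0.576 ± 0.0603 in remote and 0.975 ± 0.0511 in gene-near peaks (SD, n = 4), a scale whose comparability between libraries is not stated. Of the remote peaks, 53.2% fell in the lowest quartile of their library's signal, against 23.8% of the gene-near peaks.

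**Figure D1:**
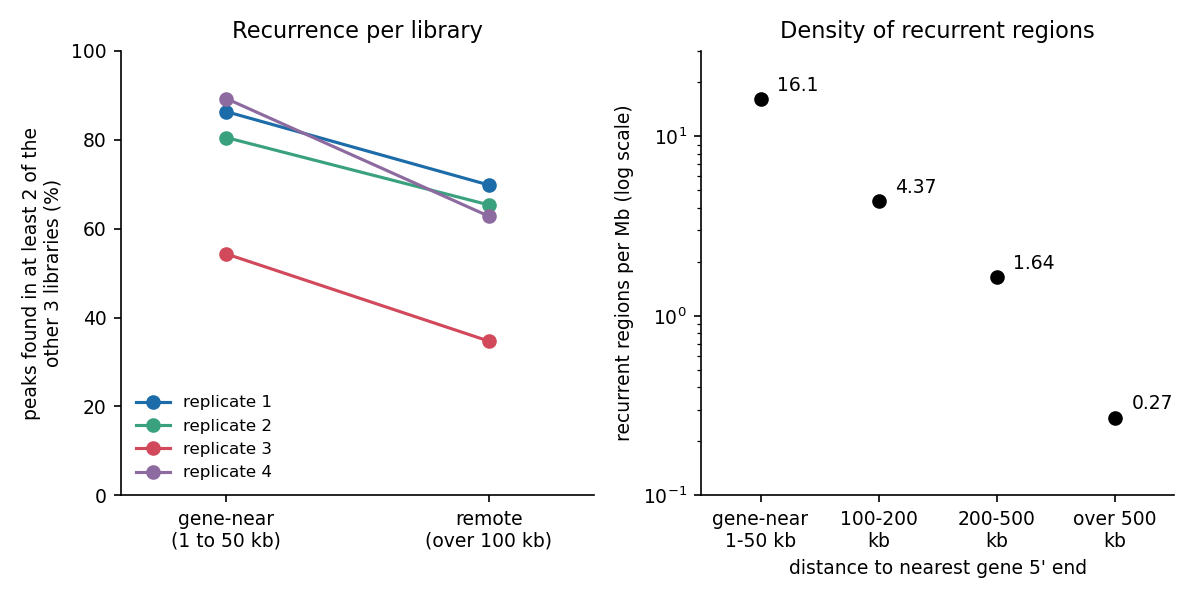
Left, share of peaks found in at least 2 of the other 3 libraries for gene-near and remote peaks, 1 line per library; each line falls, from 54.3 to 34.7% in replicate 3. Right, recurrent regions per Mb of sequence (log axis) by distance to the nearest protein-coding 5' end, from 16.1 in gene-near sequence to 0.270 beyond 500 kb.

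The difference in recurrence was much smaller at matched signal. In the lowest quartile of signal, which held most remote peaks, 45.6, 39.5, 8.09 and 40.8% of remote peaks were shared in replicates 1 to 4, against 55.9, 43.6, 9.55 and 70.3% of gene-near peaks. The remote share was thus lower in each library there, with means of 33.5 ± 17.1 and 44.8 ± 25.9% (SD, n = 4). In the second quartile the shares were 76.7 and 74.3%, in the third 92.6 and 93.4%, and in the strongest 99.5 and 99.4%. Averaged over the quartiles with equal weight, the within-library difference was -2.44 ± 3.87 percentage points (exact sign-flip permutation test, p = 0.25). That average was not larger than the spread between libraries, which does not show that the classes are alike.

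Footprints, short stretches inside a peak that DNase I cut less than their surroundings, were less common in remote peaks. At least 1 footprint of the same library lay in 63.3 ± 3.40% of remote and 82.3 ± 1.08% of gene-near peaks (SD, n = 4). The share was lower in 4 of 4 libraries (exact sign-flip permutation test, p = 0.125). The difference was -19.0 ± 3.97 percentage points, and -5.84 ± 1.13 with the shorter list and -6.73 ± 11.1 with equal peak numbers. Within signal quartiles it was -2.91 ± 1.56, with p = 0.125 in the exact sign-flip permutation test.

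Recurrent remote regions were sparse along the chromosomes. The remote sequence, 749.9 Mb without gaps, held 1.95 recurrent regions per Mb, and the 455 Mb of gene-near intergenic sequence held 16.1, a ratio of 8.26. Density fell with distance, from 4.37 per Mb at 100 to 200 kb through 1.64 at 200 to 500 kb to 0.270 beyond 500 kb. Between chromosomes it ranged from 1.11 to 3.27 per Mb. Recurrence fell too, from 33.0% of 2770 regions through 23.9% of 2016 to 7.20% of 930 in these distance classes. On either side of the threshold, 36.2% of the 516 regions at 90 to 100 kb and 33.3% of the 460 at 100 to 110 kb were recurrent. The median distance was 206 kb over all remote regions and 170 kb over the recurrent ones.

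Recurrent remote regions held fewer repeats than those seen once. Median width was 260 bp in recurrent and 106 bp in single-library regions, but a recurrent region is a union of peaks from 3 or 4 libraries, which by itself widens it, and gene-near regions had 240 and 137 bp. Bases masked as repeats in the reference averaged 11.2% in the recurrent and 26.6% in the single-library remote regions. In gene-near regions these means were 12.3 and 18.6%. Over each class as a whole they were 21.3% in remote and 15.4% in gene-near regions. Sequence is called not unique here if under 80% of its stretches of 32 bases occur once in the genome. Such sequence was found in 8.69% of recurrent and 16.3% of single-library remote regions, and in 5.36 and 10.4% of gene-near ones. Over each class as a whole it was found in 13.8% of remote and 7.74% of gene-near regions. Beyond 500 kb, 38.3% of the bases were masked and 30.2% of the regions were not unique, so that signal there can come from several copies of a repeat. Reads from such copies cannot be assigned with certainty, and how the authors treated them is not stated.

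CTCF matches were fewer in remote than in gene-near peaks. In windows of 150 bp at the peak centre, a CTCF match was present in 8.66, 8.33, 6.89 and 5.61% of remote peaks in replicates 1 to 4, and in 14.8, 14.1, 11.6 and 13.2% of gene-near peaks. Each library showed the lower value in remote peaks, and the difference was -6.04 ± 1.17 percentage points (SD, n = 4; exact sign-flip permutation test, p = 0.125, adjusted p = 0.167 over 20 patterns). The share over all autosomal peaks was 7.08%, close to the remote value, and promoter regions, where 0.855% held a match, are part of that average. Within signal quartiles the difference was -4.85 ± 0.751 percentage points. Among recurrent regions, the share was lower in remote than in gene-near regions on 18 of 19 chromosomes and about level on chromosome 2 (18.33 against 18.32%).

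RUNX and ETS matches went the other way. RUNX matches occurred in 10.4, 9.25, 11.3 and 9.27% of remote peaks and in 7.15, 7.05, 9.42 and 7.61% of gene-near peaks, a difference of 2.27 ± 0.719 percentage points with the same sign in 4 of 4 libraries. ETS matches occurred in 11.3, 12.2, 13.6 and 11.5% of remote and 9.50, 9.06, 11.1 and 11.5% of gene-near peaks. That difference was 1.88 ± 1.33 percentage points, and in replicate 4 it was 0.0724. Both had p = 0.125 in the exact sign-flip permutation test and 0.167 after adjustment. Over all autosomal peaks the shares were 6.26% for RUNX and 8.96% for ETS. Counted over merged regions, RUNX was matched in 9.17% of remote, 9.18% of intergenic regions at 50 to 100 kb and 8.42% of gene-near regions. ETS was matched in 11.0, 11.7 and 10.4% of these. The remote shares were thus not above those at 50 to 100 kb. RUNX factors and ETS factors shape lymphocyte enhancers, but each family also acts in other blood cells. Averaged within signal quartiles the differences were 4.41 ± 0.665 for RUNX and 3.62 ± 1.29 percentage points for ETS. They were 4.50 and 4.67 with the shorter peak list, and 1.16 and 1.41 without regions at noncoding genes.

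T-box and AP-1 matches differed less. T-box matches, the pattern of the NK cell factors T-bet and Eomes, were at 4.26 ± 0.511% in remote and 4.56 ± 0.373% in gene-near peaks (SD, n = 4; adjusted p = 0.167, exact test), and the sign of this small difference turned within signal quartiles, to 0.106 ± 0.309. T-box matches stood at 3.78% of all peaks. AP-1 matches, at 5.53% of all peaks, were at 7.74 and 7.34%, higher in remote peaks in 3 of 4 libraries. Of the 20 patterns, 7 were more frequent and 8 less frequent in remote peaks in each of the 4 libraries, and none could pass a threshold of 0.05 in a design of 4 libraries.

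The remaining patterns were searched the same way, and each is given as the share of remote, gene-near and all autosomal peaks. Those more frequent in remote than gene-near peaks in 4 of 4 libraries were STAT (TTCNNNGAA; 4.40, 4.04 and 3.40%), TCF (ATCAAAG; 2.40, 2.03 and 1.57%), the pattern of GATA factors (AGATAA; 5.54, 4.83 and 3.86%), YY1 (AAGATGGC; 1.53, 1.22 and 1.60%) and OCT (ATGCAAAT; 0.945, 0.740 and 0.688%). Those less frequent in 4 of 4 were the GC box (GGGGCGG; 3.04, 4.61 and 12.4%), NRF1 (GCGCATGCG; 0.120, 0.366 and 0.971%), CRE (TGACGTCA; 0.371, 0.599 and 1.25%), NF-kB (GGANTTTCC; 0.633, 0.915 and 0.812%), KLF (GGGTGTGG; 2.30, 2.59 and 2.37%) and the looser CTCF form (12.7, 24.7 and 14.2%), which contains every match of the stricter one. The GC box, NRF1 and CRE are patterns of promoters. IRF (GAAANTGAA; 1.52, 1.45 and 1.19%), E-box (CAGGTG; 15.04, 15.9 and 13.7%), NBRE (AAAGGTCA; 0.870, 0.716 and 0.600%) and C/EBP (TTGCNNAA; 5.86, 5.75 and 4.80%) differed in sign between libraries. The E-box and T-box letters overlap, so 1 stretch can count for both.

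**Figure D2:**
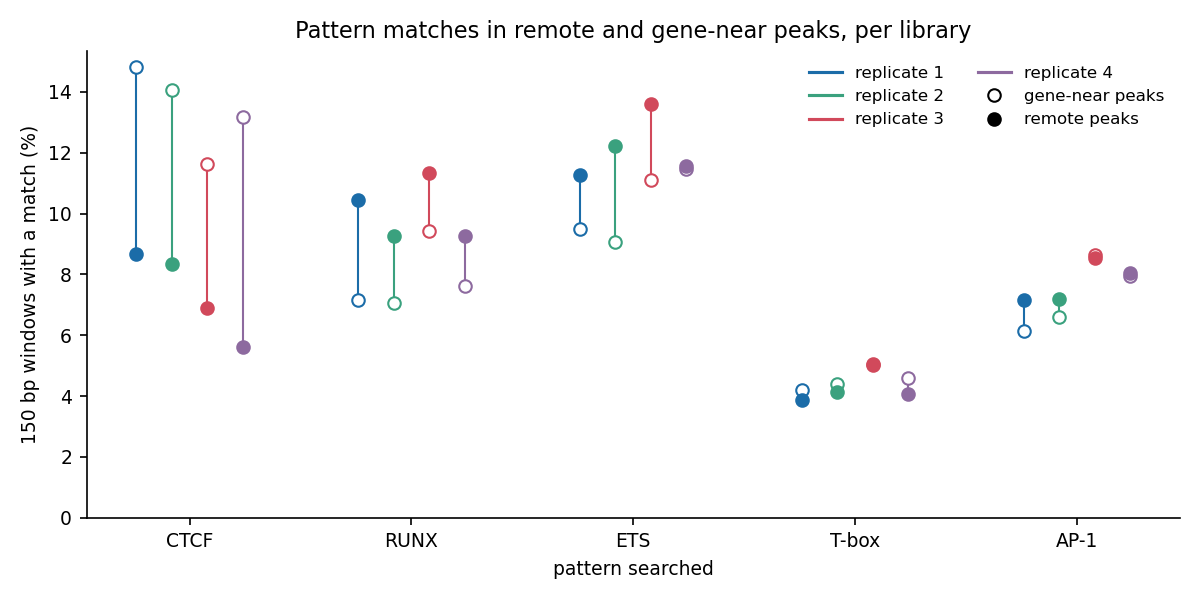
Share of 150 bp windows at the peak centre with a match to 5 patterns, for remote peaks (filled) and gene-near peaks (open), 1 colour per library. CTCF is lower in remote peaks in each library (5.61 to 8.66% against 11.6 to 14.8%), RUNX is higher in each, ETS is higher in 3 and level in replicate 4, and T-box and AP-1 lie close together.

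Against intronic peaks, which are also mostly distal, the RUNX and ETS differences were smaller than their spread over libraries. CTCF was lower in remote peaks, at 7.37 against 9.42% (4 of 4 libraries, exact sign-flip permutation test, p = 0.125). RUNX stood at 10.1 and 9.50% (p = 0.375, exact) and ETS at 12.2 and 12.1% (p = 1, exact). T-box matches were lower in remote peaks in 4 of 4 libraries, at 4.26 against 5.15%.

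RUNX matches were on average most frequent in the strongest remote peaks. In the top quartile of signal, which held on average 184 remote peaks a library, 16.9 ± 4.60% of remote peaks held one, against 6.84 ± 1.96% of gene-near peaks (SD, n = 4), and in the lowest quartile the values were 7.97 and 7.81%. In replicates 2, 3 and 4 the top quartile had the highest remote share of the 4, and in replicate 1 the third had it (12.1 against 11.8%). In recurrent remote regions as a whole, RUNX was matched in 11.6%, ETS in 14.7% and CTCF in 11.2%, against 7.21, 9.59 and 16.1% of recurrent gene-near regions. Remote regions seen in 1 library had 7.57, 9.59 and 2.73%.

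**Figure D3:**
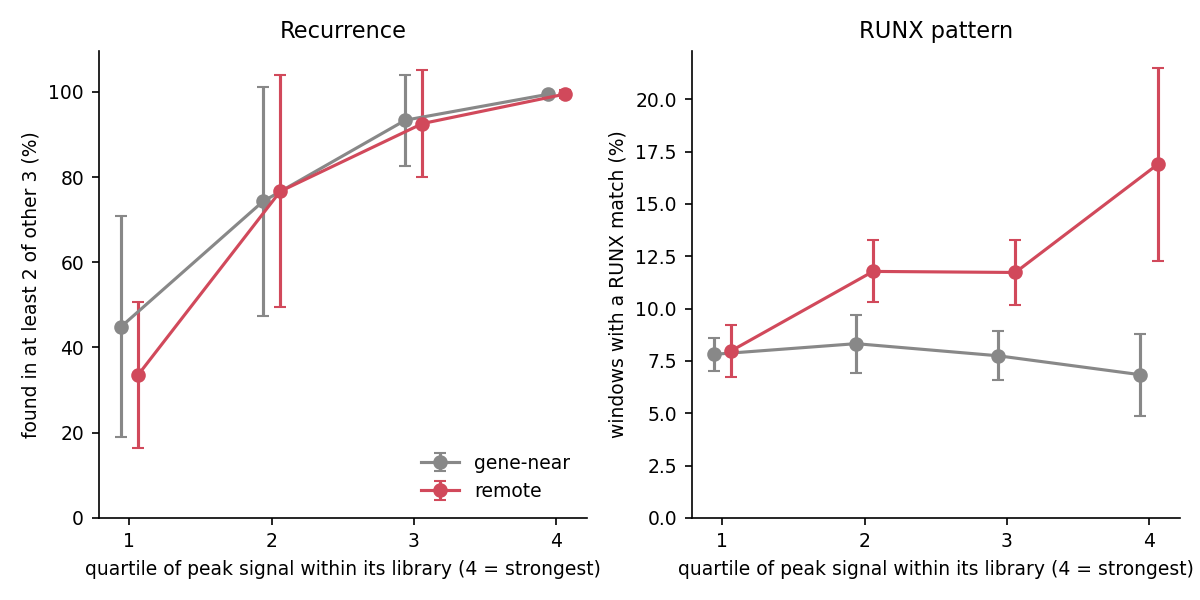
Remote (red) and gene-near (grey) peaks by quartile of signal within their library; points are means over 4 libraries and bars are SD. Left, the share found in at least 2 of the other 3 libraries, where the SD bars, which do not show the pairing within libraries, overlap in each quartile. Right, RUNX matches are level in the lowest quartile (7.97 and 7.81%) and higher in remote peaks in the top quartile (16.9 against 6.84%).

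RUNX matches were frequent in the remote regions at immunoglobulin heavy chain gene segments. Gene segments of antigen receptors are not typed as protein-coding in GENCODE, and 84 remote regions, 30 of them recurrent, overlapped one. At the heavy chain locus, 61 remote regions overlapped a segment and 38 of these had a RUNX match. Over all 5716 remote regions the share with a RUNX match was 9.17%, so these 38 are a small part of the matches. Of the 61, 43 were not unique, since V segments are copies of one another. Of the 61, 33, 27, 56 and 19 had a peak in replicates 1 to 4. Beyond 500 kb, 18 of 67 recurrent regions (26.9%) had a RUNX match. Leaving out antigen receptor segments and all non-unique sequence in 1 step, this was 6 of 41 (14.6%), and the shares of the 2 kinds in that drop were not separated, and CTCF was matched in 14 of 67 (20.9%) before and 11 of 41 (26.8%) after.

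CTCF matches in remote peaks lay less often in a footprint. At least 80% of the match lay in a footprint of the same library for 44.8 ± 3.26% of the matches in remote and 65.7 ± 7.35% of those in gene-near peaks (SD, n = 4), lower in 4 of 4 libraries (exact sign-flip permutation test, p = 0.125). The difference of -20.9 percentage points was -8.85 with equal peak numbers. Some sites had a footprint in 4 of 4 libraries, and the matched letters of 4 such sites, in regions named in the text, are given 5' to 3' on the strand that carries the pattern to show the sequence under the footprint.
Gm31371, chr8:20122199-20122210, plus strand: CCACCAGAGGGC
Ifngr1, chr10:19491693-19491704, plus strand: CCACCAGGGGGC
Dad1, chr14:54059964-54059975, plus strand: CCACTAGATGGC
Prex1, chr2:166564088-166564099, minus strand: CCACCAGGTGGC
The Gm31371 region has only 19.0% unique sequence, so its signal may be shared with copies, while the other 3 regions are fully unique.

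The 10 remote regions with the highest mean signal were a mixed group. The first, chr17:39846781-39846920, lay in an annotated ribosomal RNA copy and had a signal of 92.1, 94.5, 96.5 and 90.6 in replicates 1 to 4, with 17.9% unique sequence. The second, chr3:5860361-5860530, had 49.6, 50.2, 46.6 and 43.1, a median of 7 copies and no unique stretch of 32 bases among those sampled. These values were nearly equal between libraries and far above those of any other remote region, the highest of which had a mean of 15.3. Both are repeated sequence, where signal from several copies can add up.

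The next region, chr15:68363241-68363560, lay 104 kb upstream of Zfat, a zinc finger and AT-hook gene, with 11.0, 14.1, 19.4 and 16.7 in replicates 1 to 4. Its sequence, printed above, is rich in G and C. Behind it came chr13:107890061-107890420, nearest to Smim15, with 9.27, 13.3, 19.3 and 16.3. GENCODE types the gene starting there, Zswim6, as a processed transcript, and RefSeq types the same gene as protein-coding, so this region is a promoter by RefSeq.

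The fifth, chr8:20122141-20122400, nearest to Gm31371, had 6.98, 10.2, 16.5 and 11.0, in sequence that is mostly not unique. The region chr2:128294981-128295300, 169 kb downstream of Bcl2l11, which encodes the pro-apoptotic protein BIM, had 7.13, 8.05, 15.7 and 10.3. The region chr10:96370921-96371300, 234 kb from Gm5426 and 246 kb from the antiproliferative gene Btg1, had 7.10, 9.13, 15.2 and 10.1. Replicate 3 was highest in all 3. The Mrtfb region, chr16:13437181-13437420, with 7.63, 9.53, 10.02 and 10.2, covers the threonine tRNA gene at chr16:13437323-13437394 that is capitalised above. Transfer RNA genes are transcribed by RNA polymerase III from promoters inside the gene. RefSeq places a tRNA gene in 3 remote regions, each of which had a peak in 4 of 4 libraries, with mean signals of 9.34, 7.63 and 6.67.

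Some open regions lay megabases from a gene. The farthest region with a peak in 4 of 4 libraries, chr1:102628161-102628360, was 2140 kb upstream of Cdh20, a cadherin gene, and had 9.25, 8.21, 9.57 and 10.004 in replicates 1 to 4, with 67.4% unique sequence. A pair of regions at chr1:101902721-101903080 and chr1:101901906-101902680 followed at 2130 and 2129 kb downstream of Cntnap5b, with mean signals of 0.912 and 0.673. The next, chr14:90295541-90295900, 1824 kb upstream of Pcdh20, was fully masked as repeat. Of the 5 farthest, chr12:93152701-93152900, 1304 kb upstream of Sel1l, was the one with entirely unique sequence, and it was weak, at 0.764, 0.675, 0.507 and 0.432.

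Annotation changed the set little. By RefSeq genes as well as GENCODE genes, 5437 of the 5716 regions (95.1%) and 1387 of the 1462 recurrent ones were still remote. A RefSeq mRNA 5' end lay within 1 kb of 13 recurrent regions, the strongest being that of Zswim6. That number is low by the rule of the set, which keeps out regions near a GENCODE protein-coding 5' end. The rule does not act on long noncoding transcripts. A GENCODE lncRNA 5' end lay within 1 kb of 106 recurrent regions (7.25%), and this share was not computed for other classes. The median signal of these 106 regions was 1.11, against 0.837 for the other recurrent regions. Overlap with any GENCODE gene not typed as protein-coding was seen in 28.1% of recurrent remote regions. It was seen in 16.5% of recurrent gene-near regions and 13.1% of all recurrent regions. RefSeq lists functional elements in 10 recurrent regions, each an enhancer of the VISTA collection, with 7 elements in all. One was chr9:41951161-41951420, 173 kb from Sorl1, with a mean signal of 3.52.

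NK cell genes were frequent among the neighbours. Over the genome, 633 of 20780 protein-coding genes (3.05%) were the nearest gene of at least 1 recurrent remote region, or 22.1% of the 2861 genes that are nearest to any remote sequence. Of 84 genes in 4 NK lists, 18 had such a region, which is 18 of the 25 with remote sequence next to them. Their 82 regions gave 12.5 per Mb of that sequence, against 1.95 per Mb over all genes. The T cell list had 10.3 per Mb and the B cell list 5.20, also above the value over all genes. Density fell with distance from the gene, as given above, and the lists were not matched for distance. Their densities per Mb, here and below, are therefore not like for like. These counts are a description, since the lists were chosen with earlier results of these data known.

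Of the 24 NK transcription factor genes, 11 had a recurrent remote region, 57 in all. Among 20 effector genes 3 had one (10 regions), among 18 genes of cytokine receptors and trafficking 4 (15 regions), and among 22 receptor and adaptor genes 0. Of those 22, 3 had any remote sequence nearest to them, so the count of 0 rests on 3 genes. Of the genes with remote sequence, 11 of 15 transcription factors, 3 of 3 effectors and 4 of 4 cytokine receptor and trafficking genes had a recurrent region. Per Mb of remote sequence this came to 11.1, 57.4 and 17.4 regions, over 5.15, 0.174 and 0.861 Mb, so the transcription factors had the most regions and the most sequence to hold them.

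Lists of other cell types gave fewer. The T cell list had 3 of 19 genes, Satb1 (a chromatin organiser of T cell development) with 6 regions, Icos (a costimulatory receptor) with 2 and Lef1 (a factor of the Wnt pathway) with 1. That was 3 of the 4 with remote sequence, a share like that of the NK lists. The B cell list had 2 of 20, Bcl6 (a repressor of germinal centre B cells) with 2 regions and Ebf1 (a factor that sets B cell identity) with 1. B cell marker promoters were open in each library, 1 of 5 in replicate 3 and 3 or 4 of 5 in the others, and their part in these counts was not tested. Myeloid (20 genes) and erythroid (18 genes) lists had 0, with 2 and 1 genes that had remote sequence at all, and none of 18 housekeeping genes had any. Genes of developmental transcription factors, 16 of 24 of which stand beside remote sequence, had 5 regions, 2 each beside Sox9 and Tbx3 and 1 beside Meis2. That was 0.636 per Mb over 7.87 Mb of remote sequence, also without matching for distance.

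**Figure D4:**
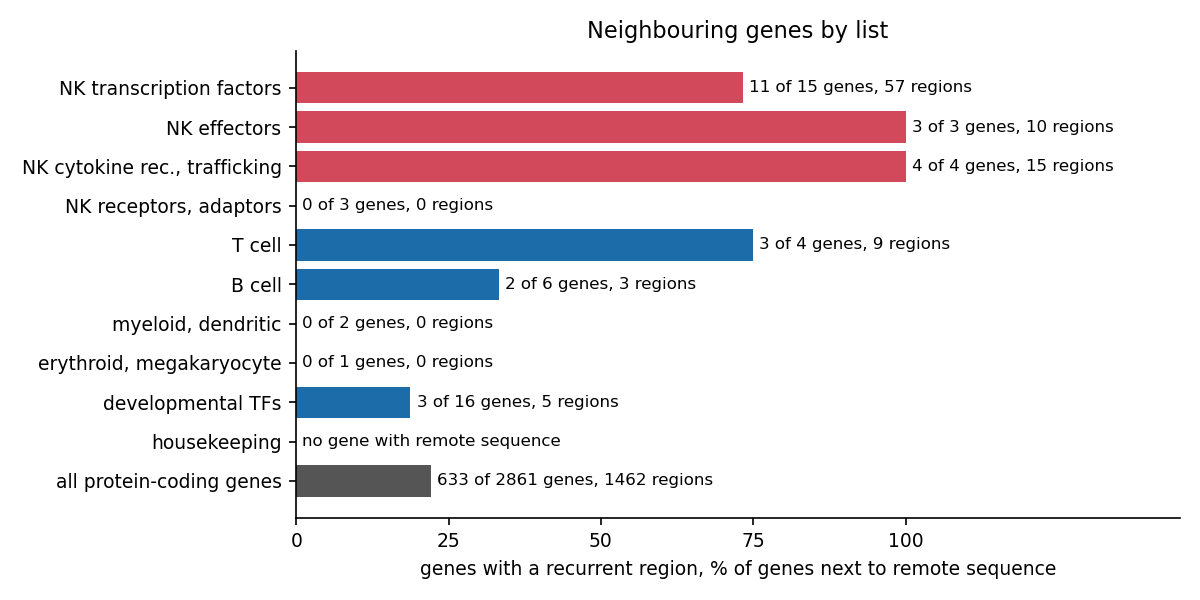
Genes with a recurrent remote region as a percentage of the genes in each list that have remote sequence nearest to them, with the counts printed at each bar. NK lists are red, other lists blue and all protein-coding genes grey (633 of 2861, 22.1%); several lists hold fewer than 5 such genes.

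Id2 had the largest set of the NK genes. Its 17 regions all lay upstream, from 112 to 342 kb before its 5' end, 14 with a peak in 4 of 4 libraries. Their median signal was 0.999, 1.06, 2.62 and 0.807 in replicates 1 to 4, and replicate 3 was highest in 17 of 17. The strongest, chr12:25240121-25240500, had 2.10, 2.24, 8.11 and 4.64. In their 150 bp windows 7 had an ETS match, 6 a RUNX match and 0 a CTCF match, and 11 lay inside the lincRNA gene Gm36723.

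Ets1 had 13 regions, all downstream, from 179 to 460 kb. The strongest, chr9:32910681-32911080, had 2.64, 3.33, 6.59 and 2.63, and replicate 3 was highest in 12 of the 13. Of these regions 6 lay in the lincRNA gene Gm27162, 4 had a RUNX match and 3 an ETS match. Foxo1 had 9 regions, each with a peak in 4 of 4 libraries, from 128 to 366 kb downstream, and its strongest, chr3:52396181-52396680, had 2.20, 2.79, 4.26 and 2.86. Neither locus had a CTCF match in its remote windows.

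Cxcr4, the receptor that keeps NK cells in the bone marrow, had 7 regions, each with a peak in 4 of 4 libraries, 113 to 240 kb upstream. The strongest, chr1:128786941-128787540, had 3.84, 4.52, 11.2 and 5.89, with replicate 3 highest. Tgfbr2, a receptor subunit for TGF-beta, had 6 regions 154 to 251 kb upstream, of which chr9:116384301-116384520 had 5.56, 6.998, 7.87 and 3.64. Replicate 4 was lowest there.

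**Figure D5:**
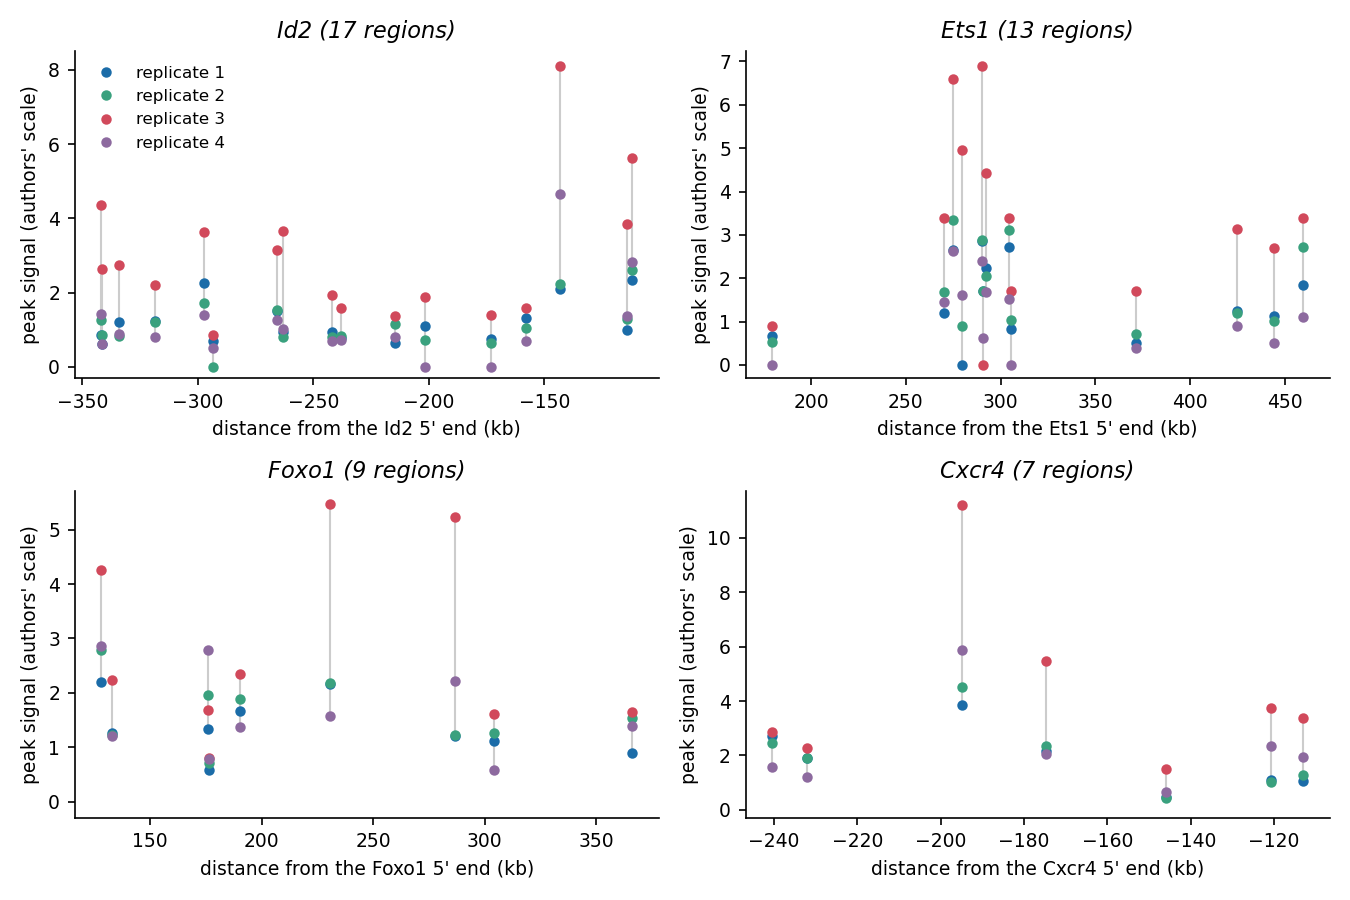
Signal of each recurrent remote region beside Id2, Ets1, Foxo1 and Cxcr4 against its distance from the gene's 5' end in kb (negative is upstream); 1 colour per library, with the range of the 4 libraries in grey. Replicate 3 is the highest point in 17 of 17 regions at Id2, 12 of 13 at Ets1, 8 of 9 at Foxo1 and 7 of 7 at Cxcr4.

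The effector genes with regions were Ifng, Fasl and Xcl1. Ifng, the gene of interferon gamma, had 6 regions from 109 to 193 kb downstream, and chr10:118592721-118592920 was the strongest with 2.79, 2.66, 3.56 and 0.961. Of the 6, 2 had a peak in all 4 libraries, and replicate 4 lacked one in the other 4. Fasl, the ligand that kills cells through Fas, had 3 regions from 101 to 117 kb downstream, each in 4 of 4 libraries, the strongest at 1.29, 1.55, 4.38 and 1.54. Xcl1, a chemokine gene, had 1 region, chr1:165035761-165035980, at 0.646, 0.806, 0.822 and no peak in replicate 4.

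The other transcription factor genes had 1 to 4 regions each. Eomes, a T-box factor of NK cell maturation, had 4 regions 103 to 136 kb upstream, and its strongest, chr9:118357481-118357720, had 2.75, 2.44, 5.78 and 2.13. Prdm1, whose product Blimp-1 is a repressor in terminal lymphocyte differentiation, also had 4, each lacking a peak in 1 library. Bach2 had 2, and the region 112 kb upstream, chr4:32126901-32127180, had 3.38, 3.60, 9.59 and 2.60. Zeb2, a factor of terminal maturation, had 2, of which chr2:46371021-46371340 lay 1254 kb upstream with 0.529, 0.856, 3.75 and 1.05. Irf2 and Runx1 had 2 each, and Tox and Nfil3 had 1 each. Of the trafficking and cytokine receptor genes, S1pr1 had 1 region, with 1.94, 2.14, 1.48 and 0.961, in which replicate 3 was not the highest. Ifngr1 had 1 region with the CTCF site given above.

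Replicate 3 was the highest library in most members with 4 peaks. In the 60 such members nearest to an NK list gene, the median signal was 1.23, 1.28, 3.04 and 1.21 in replicates 1 to 4, and replicate 3 was highest in 57 (95.0%). In the other 861 the medians were 1.07, 1.11, 1.86 and 0.798, and replicate 3 was highest in 75.4%. Over all remote regions with 4 peaks the medians were 1.09, 1.13, 1.94 and 0.817. Gene-near regions with 4 peaks had 1.48, 1.58, 2.32 and 1.07, so a higher median in replicate 3 was not particular to remote regions. The scale of the signal between libraries is not stated. Members with a RUNX match had medians of 1.19, 1.13, 2.77 and 0.937, with replicate 3 highest in 88.6%, and members with a CTCF match had 1.20, 1.27, 1.50 and 0.711, with 60.7%. The 84 members of non-unique sequence were more level still, at 0.928, 0.946, 1.19 and 0.802, with replicate 3 highest in 47.6%. Replicate 3 also had 10 of 10 NK markers and 1 of 5 B cell markers open, and the part of cell content in these values was not tested.

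The 10 genes with the most recurrent remote regions were Dad1 (19), Id2 (17), Zfp386 (17), Spdye4c (16), Adam6a (14), Prex1 (14), Ets1 (13), Myc (13), Rplp1 (13) and Pik3r1 (11). Some of these names stand for antigen receptor loci beside them. Dad1 lies next to the T cell receptor alpha locus, and 7 of its 19 regions overlapped a receptor segment. Zfp386 and Adam6a border the immunoglobulin heavy chain locus, where 11 of 17 and 10 of 14 overlapped a segment, and 14 and 8 were not unique. Myc, a regulator of cell growth, had 8 of its 13 regions inside the noncoding gene Pvt1, among them chr15:62106621-62106860, 121 kb downstream, with 3.34, 4.15, 8.98 and 4.57.

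Recurrent remote regions were joined into groups by position. The shares are given without those of other classes of region, so grouping is not shown to be particular to remote regions. Joined where gaps were at most 25 kb, the 1462 regions formed 907 groups, of which 614 held 1 region, and 58.0% of the regions were in the other 293. The largest, chr2:128367821-128451820, held 15 regions over 84.0 kb between Bcl2l11 and Spdye4c, inside the lincRNA gene Gm14005, which held 24 recurrent remote regions in all. Its regions had a median signal of 0.576, 0.856, 1.99 and 0.769 in replicates 1 to 4. The second, chr9:61664095-61708220, held 13 regions between Tle3 and Rplp1, with medians of 1.46, 2.26, 2.77 and 1.47.

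A different pattern was seen at chr4:3050101-3066700, near the start of chromosome 4, with 11 regions, each of which had a peak in replicates 1, 2 and 4 and none in replicate 3. Of the 30 recurrent remote regions lacking a peak in replicate 3, 11 were in this group, and their median signal was 0.247, 0.282 and 0.269 in the 3 libraries. The next groups held 10 regions at chr10:120616661-120702160 between Hmga2 and Msrb3, 9 at chr2:166440521-166505760 beside Prex1, and 9 at chr5:148756342-148820760 beside Katnal1. Replicate 3 had the highest median in each of those 3.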

How the data were processed

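DNase-seq was deposited for 4 NK cell libraries, each with 2 peak lists, low-FDR bases and footprints. Per the labels and the file headers, each library was aligned to mm10 and its files were made from its own alignments. Aligner, callers and settings are not given. The authors' signal value per peak was used as deposited, and its scale between libraries is not stated. The deposited FDR of each base (a q-value) is listed below 0.05, and the authors' footprints carry a constant p-value or FDR threshold of 0.01. The longer peak list was used, and the shorter is an alternative.

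From these files, touching peaks on 19 autosomes were merged and placed against GENCODE vM21, with RefSeq on the same assembly as a check added after the data were seen. Measures were taken per library and compared by the exact sign-flip test over 4 libraries, with Benjamini-Hochberg adjustment over 20 patterns. Patterns were searched in 150 bp windows on both strands. Uniqueness was the share of 32-mers that occur once in the genome, sampled at every 4th start position of a region. The work used Python 3.11.15, numpy 2.4.6, pandas 2.3.3, scipy 1.17.1, numba 0.67.0 and matplotlib 3.10.9, and the steps were tested on simulated data. Alternatives tried were the shorter list, equal peak numbers, other windows, distances and recurrence minimums, all transcript 5' ends, unique sequence alone, a looser CTCF pattern, intronic peaks as the comparison, signal quartiles, leaving out noncoding-gene regions, and leaving out each library.

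The members and the 10 gene lists (NK receptors and adaptors, NK effectors, NK transcription factors, NK cytokine receptors and trafficking, T cell, B cell, myeloid and dendritic, erythroid and megakaryocyte, developmental transcription factors, housekeeping) were chosen with earlier results of these data known. Named regions are the 10 strongest and 5 farthest with a peak in all 4 libraries, the 5 longest groups (a tie is given too) and the strongest beside each NK list gene. Named genes are the NK list genes with a recurrent remote region, up to 4 of each other list, and the 10 genes with the most regions. Other names were added after their values were seen.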

Additional observations from a re-analysis of the deposited data

Results flagged for a closer look

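Of 62 values examined for a sample far from the rest (36 of them regions with a peak in all 4 libraries), 6 had 1 library set apart by a gap large against the range of the 4. Chance alone sets apart about 1 in 20 values that are independent of one another. These values are not independent, because replicate 3 was the highest library in most remote regions with 4 peaks. The rate of 1 in 20 therefore does not measure how unusual the 6 are. In each of the 6 the library was replicate 3 and its signal was the highest. They were the region beside Spdye4c at chr2:128396041-128396240 with 13.8, beside Fasl at chr1:161670981-161671240 with 4.38, beside Eomes at chr9:118357481-118357720 with 5.78, beside Zeb2 at chr2:46371021-46371340 with 3.75, beside Bach2 at chr4:32126901-32127180 with 9.59, and beside Adam6a at chr12:113994361-113994580 with 3.92. The Adam6a region overlaps an immunoglobulin V segment and has 47.9% unique sequence.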

How the results depend on the processing

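Of the values under alternatives, 1 changed sign. Differences between remote and gene-near peaks otherwise kept their sign, but several changed much in size. The recurrence difference, -19.4 percentage points, was -7.96 with the shorter peak list, -11.9 with equal numbers of the strongest peaks, -2.44 within signal quartiles and -29.8 over 200 kb. The signal difference, -24.7, was -14.8 with the shorter list and -12.2 with equal numbers. The footprint difference, -19.0, was -5.84, -6.73 and -2.91 with the shorter list, equal numbers and quartiles, and that of CTCF matches in a footprint, -20.9, was -8.85 with equal numbers and -31.2 over 200 kb. Against gene-near peaks RUNX, 2.27, went from 1.16 without regions at noncoding genes to 4.50 with the shorter list. ETS, 1.88, went from 1.24 over 200 kb to 4.67 with the shorter list. Against intronic peaks both were smaller, RUNX at 0.573 (higher in 3 of 4 libraries) and ETS at 0.0703 (higher in 2 of 4). CTCF, -6.04, went from -2.05 against intronic peaks to -12.04 with the looser pattern. The remote share of peaks, 5.30%, was 3.77% with the shorter peak list, 3.78% with equal numbers of the strongest peaks, 2.40% with a threshold of 200 kb and 4.53% without regions at noncoding genes. The density of recurrent remote over gene-near regions, 0.121, was 0.0962 with equal numbers of peaks, 0.0629 over 200 kb and 0.227 when a peak in 1 library was enough. Genes with a recurrent remote region, 633, numbered 250 over 200 kb and 1602 with a peak in 1 library, and NK list genes, 18, numbered 8 over 200 kb. The T-box difference, -0.300, turned to 0.106 within signal quartiles. Without 1 library in turn, the CTCF difference lay between -6.46 and -5.53, the RUNX difference between 1.93 and 2.48 and the ETS difference between 1.47 and 2.49. The recurrence difference lay between -20.03 and -16.1 percentage points and the number of genes between 657 and 739. These last 2 rest on a lower minimum: a shared peak needed 1 other library, and a recurrent region a peak in all but 1 of those left. They are thus not like for like with -19.4 and 633. Requiring RefSeq genes to be over 100 kb away too, added after seeing the data, gave a recurrence difference of -19.4 and 598 genes. The cause of these changes was not tested. No paired analysis was possible because the labels give 1 group, with no second group whose replicates could be matched, and differences between classes of peaks were taken within each library. With 4 libraries no exact test could fall below 0.125. Depth is not stated, counting error of the authors' signal was not estimated, and non-unique sequence limits the most distant regions.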
